A study of Mus musculus with 10 samples.

Results

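Untreated mouse retina at postnatal day 17 was compared with untreated retina at postnatal day 7, to describe which transcripts rise and which fall as the tissue matures. Both groups were C57BL/6JJmsSlc mice, the tissue was whole retina, and neither group had been placed in high oxygen or injected. Each had 2 arrays, so 4 of the 10 arrays of the series enter the comparison. The other 6 arrays, also of this strain at day 17, are of retina with oxygen-induced retinopathy (OIR), in which pups are kept in high oxygen from day 7 and then returned to air. They were uninjected, or given an intravitreal injection of PBS (buffered saline) or of ISOX DUAL (2 arrays each). They entered through the shared estimate of spread. The SD of the difference between a group's 2 arrays over genes was 0.40 at day 7, 0.34 at untreated day 17 and 0.33 in uninjected OIR. It was 0.16 with ISOX DUAL and 0.22 with PBS, so the shared spread is drawn partly from tighter groups. For the OIR arrays, the range is given where it shows whether a level at day 17 was also seen in them. Whether both arrays of a group represent separate mice is not stated in the labels, and the p-values below reflect array-to-array spread that may be technical.

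Of 30063 genes that 1 transcript cluster of the array names without ambiguity, 28131 are autosomal. Of these, 22097 were above an array's 30th percentile on at least 2 arrays and were tested. Genes on X and Y were left out. Every level is a deposited log2 value, and every difference is day 17 minus day 7 on that scale with its standard error (±) and an adjusted p from limma, corrected by the Benjamini-Hochberg method over all genes fitted. A gene is said to have risen or fallen where the adjusted p was under 0.05. The negative control probes had medians of 5.83 to 6.05 on the 4 untreated arrays. The 30th percentile used as a filter lies below that median on every array, so the genes tested include some at background. Where both arrays of a gene's dimmer group were under that median, no fold is given and the size of its difference is not exact. Where 1 of the 2 lay under it, as in the day 7 values of Slc24a1, Trpm1 and Calb1, the fold rests partly on a value at background. Levels of different genes are not compared, because probes differ in brightness. A gene said below to have risen or fallen also did so with each of the 10 arrays left out in turn, unless an exception is stated with it or in its paragraph.

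At day 7 the mouse retina still holds its last dividing progenitors, rods are without grown outer segments, bipolar cells are forming synapses, and the superficial vessel plexus is spreading. By day 17 the eyes have opened, outer segments have grown, the ribbon synapses transmit, and the deeper vessel layers are in place. Rods are by far the most numerous cells of the mouse retina. In whole tissue, more cells of a type and more RNA per cell cannot be told apart, and this holds for every group of genes below.

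At day 17, 17 of 19 tested genes of rod phototransduction, 14 of 25 of the outer segment, 12 of 24 of the photoreceptor ribbon synapse and 13 of 21 of bipolar cells were called higher and none lower. Of 41 genes of cell division 25, of 20 progenitor genes 7 and of 27 genes of immature neurons 11 were called lower and none higher. In all, 2353 of the 22097 autosomal genes passed the threshold, 10.6% of those tested. Of these, 1177 (5.33% of those tested) rose and 1176 (5.32%) fell. The counts of each list below are to be set beside these shares over all tested genes. With each array centred on its median, 985 rose and 1568 fell, which moved the share of calls that were higher from 50% to 38.6%. At least 2-fold changes numbered 415 higher and 264 lower, and at least 4-fold changes 82 and 29. The median difference over all tested genes was 0.01, and the groups did not overlap for 8958 genes, 40.5% of those tested. Of the genes that rose, 349 lay below the negative control median on both day 7 arrays, and of those that fell, 216 did so on both day 17 arrays. On all 6 OIR arrays, 1085 of the 1177 higher genes were above both day 7 arrays and 1112 of the 1176 lower genes were below both. The calls rest on the same day 7 arrays, so these counts are partly fixed by the selection. The share over all tested genes was not counted. The number of calls rests partly on single arrays. It was 1433 without the second day 7 array, 1591 without the first day 17 array, and 1553 without either ISOX DUAL array.

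**Figure D1:**
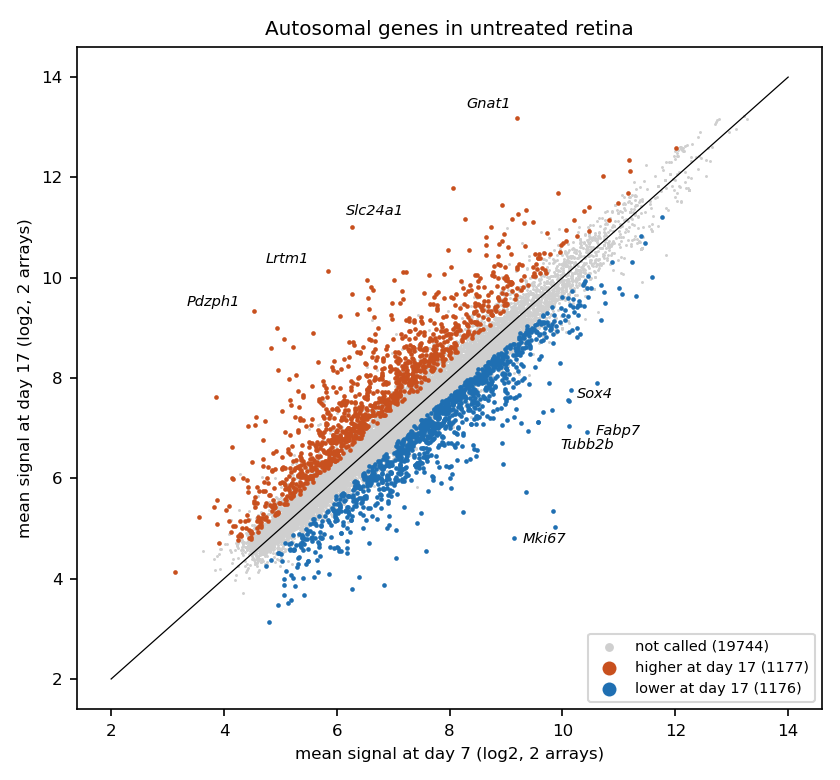
Mean log2 signal at day 17 (vertical, 2 arrays) against day 7 (horizontal, 2 arrays) for 22097 autosomal genes of untreated retina, with 1177 higher genes in red, 1176 lower genes in blue, the others in grey, and a line of equality. Slc24a1, Gnat1, Lrtm1 and Pdzph1 lie far above the line, and Mki67, Fabp7 and Tubb2b far below it.

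Of 19 rod phototransduction genes tested 17 rose and none fell, with a median difference of 2.07 against 0.01 over all tested genes. The other 2, Cngb1 (0.70 ± 0.21, adjusted p = 0.0820) and Pdc (0.60 ± 0.19, adjusted p = 0.100), did not pass, but Cngb1 did without the first day 17 array (0.00602) and Pdc without the first day 7 array (0.00476). The mean over the 19 genes was 9.25 and 8.53 at day 7, 10.89 and 11.08 at day 17, and 10.76 to 10.94 with OIR. Without 1 array, 13 to 18 of the 19 genes rose, the fewest without either day 17 array or without the second day 7 array, and 11 of the 17 rose in every such fit.

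Gnat1, the rod transducin subunit that carries the light signal to the phosphodiesterase, read 9.85 and 8.53 at day 7 and 13.17 and 13.20 at day 17. The day 17 arrays were nearly equal, and the day 7 arrays lay further apart. The rise was 15.9-fold (3.99 ± 0.35, adjusted p = 0.000664). Pde6a, a catalytic subunit of the rod phosphodiesterase that hydrolyses cyclic GMP, went from 8.58 and 7.54 to 11.67 and 11.90, a rise of 13.2-fold (3.73 ± 0.28, adjusted p = 0.000395). As for Gnat1, the first day 7 array was the brighter of that pair. Its partner Pde6b read 10.85 and 10.10 and then 11.34 and 11.49 (1.91-fold), and its call was lost in 7 of the 10 fits with 1 array left out (adjusted p up to 0.111).

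Slc24a1, the rod sodium, calcium and potassium exchanger that clears calcium from the outer segment, read 6.48 and 6.04 at day 7, the second of these under that array's negative control median of 6.05, and 10.74 and 11.28 at day 17. The rise was 26.8-fold (4.75 ± 0.20, adjusted p = 3.41e-05), and the 6 OIR arrays lay between 10.91 and 11.01. The cyclic GMP-gated channel subunit Cnga1 rose 4.51-fold (2.17 ± 0.38, adjusted p = 0.0107, and 0.0619 without the first day 17 array).

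Calcium feedback and recovery genes rose with them. Guca1b, which encodes a calcium sensor that controls guanylate cyclase, went from 6.45 and 6.61 to 9.66 and 10.25, a rise of 10.7-fold (3.42 ± 0.18, adjusted p = 8.36e-05). Its neighbour in function Guca1a rose 6.00-fold, from 7.56 and 6.74 to 9.63 and 9.85. Both groups were clear of each other for both sensors, as they were for 40.5% of all tested genes. Recoverin, Rcvrn, which restrains the kinase GRK1 in the dark, read 8.90 and 7.64 and then 11.30 and 11.05 (7.49-fold), and the gene of that kinase, Grk1, rose 4.19-fold. The genes of the complex that switches transducin off rose by different amounts. Rgs9bp, its membrane anchor, rose 4.59-fold, Gnb5 3.13-fold, and Rgs9, its catalytic member, 1.93-fold. Sag, the rod arrestin that ends the light response, was already bright at day 7 (11.03 and 10.39) and read 11.99 and 12.06 at day 17, a rise of 2.48-fold.

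The promoter windows of rod genes were read because the listed members moved together. The letters TAATCC, which read GGATTA on the other strand, are the core recognised by the photoreceptor homeodomain factors CRX and OTX2. In the 250 bases before the start site they are found in 6.38% of the 25748 RefSeq windows read (GRCm38.p6), in 7 of the 13 rod phototransduction genes with a window (53.8%), and in 1 of 33 cell cycle genes (3.03%). Among tested genes with a window the share was 5.77%, among genes at least 2-fold higher 11.8% of 304, and among those at least 2-fold lower 4.62% of 173. A match describes letters in a window and is neither a bound site nor a cause, and the motifs were chosen with the results known. The printed windows hold the 150 bases before the start of Sag (chr1:87803530-87803679, plus strand) and of Aipl1, a chaperone gene of the outer segment list described below (chr11:72037510-72037659, minus strand). They also hold those of the bipolar gene Lrtm1 (chr14:29018058-29018207, plus strand) and of Slc24a1 (chr9:64951621-64951770, minus strand), in which these letters were not found. Capitals mark the match, which ends 82 bases before the start in Sag, 48 in Aipl1 and 68 in Lrtm1.
Sag: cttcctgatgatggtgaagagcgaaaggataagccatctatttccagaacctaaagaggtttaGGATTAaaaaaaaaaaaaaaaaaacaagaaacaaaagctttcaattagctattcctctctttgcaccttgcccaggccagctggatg
Aipl1: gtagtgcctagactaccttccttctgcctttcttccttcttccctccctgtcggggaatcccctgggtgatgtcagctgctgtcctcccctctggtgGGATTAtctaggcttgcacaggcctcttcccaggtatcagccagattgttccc
Lrtm1: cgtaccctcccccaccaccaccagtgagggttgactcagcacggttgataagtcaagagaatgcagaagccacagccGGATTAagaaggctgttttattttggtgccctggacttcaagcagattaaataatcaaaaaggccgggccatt
Slc24a1: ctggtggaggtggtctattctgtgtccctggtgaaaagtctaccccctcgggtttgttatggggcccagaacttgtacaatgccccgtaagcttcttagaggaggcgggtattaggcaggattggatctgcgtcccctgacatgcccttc

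**Figure D2:**
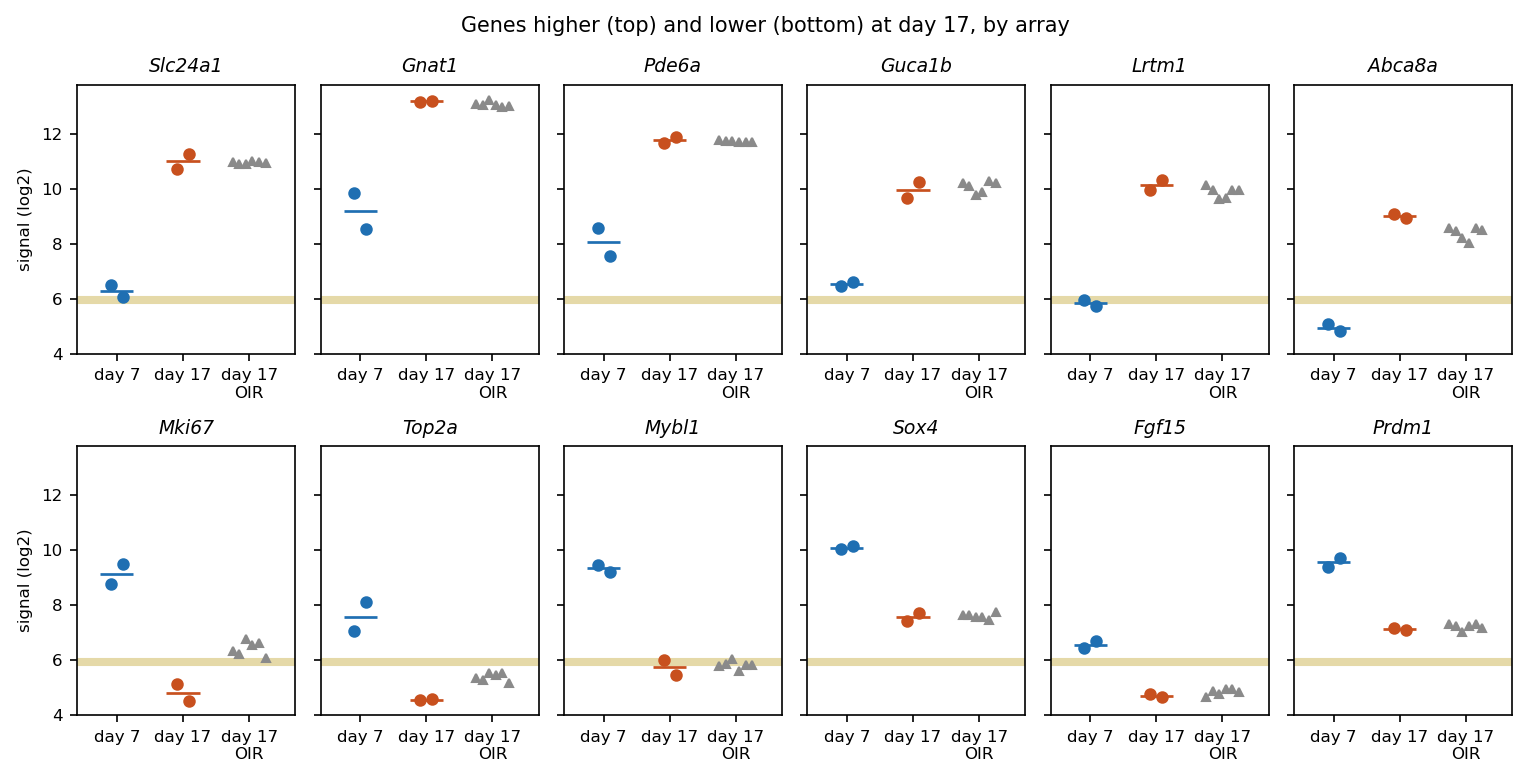
Log2 signal of 12 genes on each array (dots: untreated, 2 arrays a day, with their mean as a line; grey triangles: the 6 OIR arrays at day 17; tan band: range of the negative control medians of the untreated arrays). The top row rises from day 7 to day 17 (Slc24a1 from 6.26 to 11.01 on average) and the bottom row falls (Mki67 from 9.14 to 4.82). The dots of the 2 days are apart in every panel, but most panels show genes picked from those whose groups do not overlap (40.5% of those tested).

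Of 10 cone phototransduction genes 6 rose and none fell, with a median of 0.96. Opn1sw, the short-wavelength cone opsin, read 8.92 and 8.98 at day 7 and 9.73 and 9.84 at day 17. Replicates were tight and the rise was 1.79-fold (0.84 ± 0.12, adjusted p = 0.00438). Pde6c, the catalytic subunit of the cone phosphodiesterase, rose 2.95-fold and Pde6h, its inhibitory subunit, 2.13-fold. The cone transducin gene Gnat2 rose 2.64-fold, from 7.47 and 6.72 to 8.63 and 8.36 (1.40 ± 0.30, adjusted p = 0.0229). That call was lost without the first (adjusted p = 0.114) or second day 17 array (0.0541) and without the second day 7 array (0.105). The cone channel subunits did not pass, Cnga3 at 0.26 (adjusted p = 0.334) and Cngb3 at -0.45 (adjusted p = 0.462).

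Of 25 tested genes for outer segment structure and upkeep, 14 rose and none fell (median 0.72), with 8 to 14 higher without 1 array, the fewest without the second day 7 array. Aipl1, a chaperone needed to fold the phosphodiesterase, read 8.22 and 7.83 at day 7 and 9.93 and 10.51 at day 17 and rose 4.57-fold (2.19 ± 0.19, adjusted p = 0.000727). Rdh8, an outer segment retinol dehydrogenase, rose 3.79-fold, and Abca4, the flippase that moves retinaldehyde products out of the discs, 3.50-fold (8.84 to 9.02 at day 7, 10.49 to 10.99 at day 17). Nxnl1, the gene of rod-derived cone viability factor, rose 3.40-fold. Members that build the disc rim were bright by day 7. Prph2, the rim protein peripherin, read 11.15 and 11.24 and then 11.73 and 12.54, a 1.92-fold rise whose call was lost in 8 of 10 fits with 1 array left out (adjusted p up to 0.118). Rp1, a microtubule protein of the axoneme, was 0.54 lower without passing (adjusted p = 0.0527, and 0.0236 without the second day 7 array). Of 19 genes of the connecting cilium and its transport, 4 rose and none fell (median 0.33), but 1 rose without the first day 17 array and 8 without the first day 7 array. With any OIR array or the second day 7 array left out 2 rose. Arl3, a small GTPase that releases lipidated cargo in the outer segment, rose 2.38-fold and was the 1 of the 4 that passed with each array left out.

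Photoreceptor transcription factors split. Of 13 tested, 3 rose and 3 fell, with a median of -0.33, with 2 lower without the first day 7 array and 6 lower without the second day 17 array. Prdm1, which steers precursors to the photoreceptor rather than the bipolar fate, read 9.41 and 9.71 at day 7 and 7.15 and 7.10 at day 17. It fell by 2.43 (± 0.13, adjusted p = 8.64e-05), and its day 7 level was 5.40-fold higher. Otx2, which specifies photoreceptors and bipolar cells, fell by 1.26 (± 0.11), from 10.74 and 10.76 to 9.36 and 9.62. Esrrb, a nuclear receptor linked to rod survival, went the other way, from 6.31 and 6.29 to 8.26 and 9.08, a rise of 5.15-fold (2.36 ± 0.26, adjusted p = 0.00178). Mef2c also rose (1.71 ± 0.23), as did Thrb, the thyroid hormone receptor that patterns cone opsins (1.68-fold). Nrl, the factor that sets rod fate, was 0.28 higher (adjusted p = 0.334, and 0.0278 without the first day 17 array), and Crx was 0.41 lower (adjusted p = 0.413, and 0.0155 without the second day 17 array). For Crx the second day 17 array (11.46) lay within the day 7 range (11.29 and 11.55), the first read 10.56, and without that array the difference was 0.038. Nr2e3 is not analysed here.

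Genes of the photoreceptor ribbon synapse, where rods and cones release glutamate, rose in 12 of 24 and fell in none (median 0.44). Without the second day 7 array 7 rose. Cabp4, a calcium-binding protein that tunes the presynaptic calcium channel, read 7.59 and 6.75 at day 7 and 10.12 and 10.10 at day 17 and rose 7.65-fold (2.93 ± 0.33, adjusted p = 0.00178). Cplx4, a complexin of ribbon synapses, rose 5.74-fold (2.52 ± 0.18, adjusted p = 0.000339), from 9.25 and 8.63 to 11.37 and 11.55. The vesicular glutamate transporter Slc17a7 rose 2.97-fold and Lrit3, which organises the postsynaptic receptor complex from the rod side, 2.82-fold. The scaffolds Bsn (0.13, adjusted p = 0.698) and Pclo (0.37, adjusted p = 0.600) and the ribbon gene Ctbp2 (-0.06, adjusted p = 0.884) did not pass.

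Bipolar cells receive that glutamate, and their genes had the second highest median of the lists with at least 5 tested genes, 1.26. Of 21 tested, 13 rose and none fell, and without 1 array 10 to 17 rose, the most without the first day 7 array. Lrtm1, a leucine-rich repeat membrane protein, read 5.96 and 5.73 at day 7 and 9.95 and 10.33 at day 17 (4.29 ± 0.14, adjusted p = 1.02e-05). Both day 7 values were below the negative control median, and the OIR arrays read 9.63 to 10.13. Trpm1, the cation channel that opens when ON bipolar cells respond to light, rose 10.6-fold (3.41 ± 0.38, adjusted p = 0.00180), from 7.00 and 5.55 to 9.60 and 9.76. Its day 7 arrays were far apart, and its receptor Grm6 showed more of the same, with 8.36 and 6.50 at day 7 and 8.98 and 9.55 at day 17. Grm6 was 3.56-fold higher and did not pass (1.83 ± 0.51, adjusted p = 0.0631, and 0.00209 without the first day 7 array). Cabp5, a calcium sensor of rod bipolar and some cone bipolar cells, rose 5.75-fold, Prkca, the standard marker of rod bipolar cells, 2.73-fold, and the G protein subunit Gng13 2.39-fold. Tacr3, a tachykinin receptor of OFF bipolar cells, read 7.23 and 7.57 and then 8.36 and 8.09 (1.77-fold), but the OIR arrays read 7.37 to 7.52, within the day 7 range.

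Of 24 amacrine genes tested, 6 rose and 3 fell (median 0.14), and none passed in a fit of the 4 untreated arrays alone. Over all tested genes 10.6% were called, 5.33% higher and 5.32% lower. The glycine transporter Slc6a5 rose 1.87-fold (0.90 ± 0.09, adjusted p = 0.00101), from 6.36 and 6.44 to 7.33 and 7.28. The starburst amacrine genes Chat, which makes acetylcholine (1.58-fold), and Slc5a7, which takes up choline (2.13-fold), rose, as did the peptide gene Vip (1.28 ± 0.21, from below the negative controls). The developmental transcription factors Tfap2a and Meis2 fell by 0.61 and 0.79. Of 8 horizontal cell genes 2 rose and 1 fell, and without the first day 17 array 1 rose. The fall, of the transcription factor gene Onecut2, was lost without the second day 17 (adjusted p = 0.0723) or first day 7 array (0.0860). Mgarp, a mitochondrial transport gene, rose 3.54-fold. Calb1, the calcium buffer calbindin, rose 5.29-fold (6.60 and 5.28 to 8.73 and 7.96) with adjusted p = 0.0119, and 0.0688 without the first day 17 array. Among 19 ganglion cell genes 3 rose and 1 fell (median 0.61), with 2 to 4 higher without 1 array, the most without the first day 7 array. Nefh, the heavy neurofilament of large axons, rose 2.96-fold, from 7.12 and 6.67 to 8.46 at both day 17 arrays, and the nicotinic receptor gene Chrna6 rose 2.57-fold. Eomes, a transcription factor of intrinsically photosensitive ganglion cells, fell by 0.70. Rbpms, a general ganglion cell marker, differed by -0.02 (adjusted p = 0.972).

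Müller glia span the retina and handle its potassium, water and glutamate. Of 18 tested homeostatic genes 5 rose and 3 fell (median 0.47), and without the first day 17 or the second day 7 array none fell. Abca8a, a lipid transporter gene used as a Müller marker, read 5.08 and 4.80 at day 7 and 9.07 and 8.93 at day 17 (4.06 ± 0.12, adjusted p = 7.73e-06), the smallest adjusted p among the listed genes. The day 7 values were below the negative control median, and the OIR arrays (8.04 to 8.56) lay between the groups but near day 17. The water channel Aqp4 rose 2.48-fold, from 6.43 and 6.22 to 7.59 and 7.68, and the potassium channel Kcnj10 2.10-fold. Clu, the secreted chaperone clusterin, rose 5.39-fold, from 8.07 and 7.18 to 10.22 and 9.90. Spc25, a kinetochore gene also used as a Müller marker, rose 2.98-fold (6.83 and 6.82 to 8.52 and 8.28), unlike the cell division genes below, and read 6.50 to 7.10 on the OIR arrays. Rlbp1, the retinaldehyde-binding protein of these cells, was 0.39 higher without passing (adjusted p = 0.361), Vim differed by -0.04, and Glul is not analysed here. Of 13 astrocyte and reactive glia genes, Osmr alone rose (1.44 ± 0.23, from below the negative controls), a share under the 10.6% called over all tested genes. Gfap, the filament of astrocytes and stressed Müller glia, was at 6.23 and 6.31 and then 6.15 and 6.20 (adjusted p = 0.826), against 7.72 to 8.67 on the OIR arrays.

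Receptor genes of inhibitory transmission rose. Of 16 GABA and glycine genes 7 rose and none fell (median 0.74). Gabrr2, a subunit of the ionotropic GABA receptor on bipolar terminals, read 6.66 and 6.45 at day 7 and 9.67 and 9.53 at day 17, a rise of 8.25-fold (3.04 ± 0.16, adjusted p = 8.34e-05). Gabrr1, its partner, went from 8.37 and 6.08 to 10.26 and 9.98 (7.46-fold, adjusted p = 0.0208), with day 7 arrays far apart, and did not pass without the first (0.0982) or second (0.0612) day 17 array. The glycine receptor subunits Glra1 and Glra3 rose 4.13-fold and 3.51-fold. Chloride transporters were read because they set the sign of GABA responses. Slc12a5, which lowers neuronal chloride, rose 2.60-fold, from 8.30 and 8.45 to 9.32 and 10.19 (adjusted p = 0.0142), with adjusted p = 0.0637 without the first and 0.0571 without the second day 7 array. Slc12a2, which raises chloride, was 0.19 higher (adjusted p = 0.547).

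Glutamate receptor genes went in opposite directions, 5 higher and 4 lower of 17 tested (median 0.10), with 3 higher without either the first day 17 or the second day 7 array. Grm5, a metabotropic receptor, rose (1.58 ± 0.12, adjusted p = 0.000390), from 5.91 and 5.72 to 7.47 and 7.31, with day 7 below the negative controls. Grin2a, the NMDA receptor subunit typical of mature synapses, rose 1.65-fold, from 6.34 and 6.25 to 6.97 and 7.05. Grin2b, the subunit typical of young synapses, was at 7.61 and 7.45 and then 7.66 and 7.53, a difference of 0.07 ± 0.10 (adjusted p = 0.791). The kainate subunit Grik3 fell by 1.69 (± 0.23, adjusted p = 0.00384), from 7.66 and 8.22 to 6.03 and 6.48. Grm7 fell by 0.64 and Grik2 by 0.56. Of 21 potassium and HCN channel genes 10 rose and none fell (median 0.60), 6 without either the second day 17 or the second day 7 array. Kcnh6 rose 2.38-fold, the fast-spiking channel genes Kcnc1 and Kcnc2 1.62-fold and 1.83-fold, and the axonal channel gene Kcna1 2.16-fold. Kcnc2 read 6.54 to 6.98 on the OIR arrays against 6.69 and 6.49 at day 7 and 7.61 and 7.32 at day 17.

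**Figure D3:**
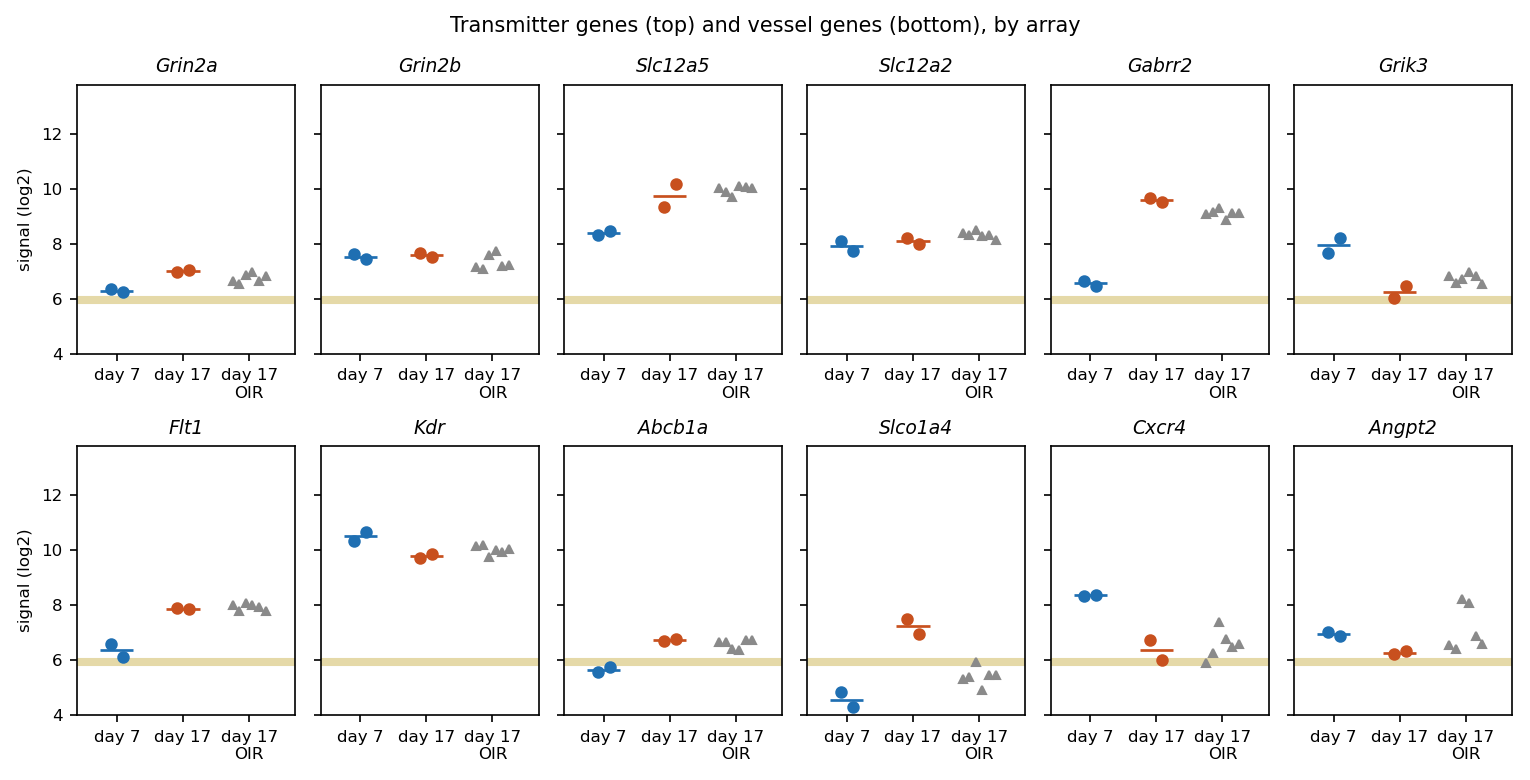
Log2 signal on each array for transmitter genes (top) and vessel genes (bottom), drawn as dots with a mean line for untreated day 7 and day 17 and grey triangles for the 6 OIR arrays, with the negative control range as a tan band. Grin2a, Slc12a5 and Gabrr2 are higher at day 17 and Grik3 lower, while Grin2b (difference 0.07) and Slc12a2 (0.19) did not pass the threshold. Slco1a4 is high on the untreated day 17 arrays (7.51 and 6.96) against 4.90 to 5.93 on the OIR arrays.

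Vessel genes showed a mixed pattern. Of 20 endothelial genes 6 rose and 1 fell (median 0.31), and 2 rose and none fell without the second day 7 array. Ptprb, a receptor phosphatase of endothelial junctions, rose 2.76-fold (1.46 ± 0.11, adjusted p = 0.000441), from 6.01 and 5.83 to 7.45 and 7.32. The VEGF receptor genes moved oppositely. Flt1, which binds VEGF without strong signalling, rose 2.88-fold, from 6.60 and 6.11 to 7.88 and 7.87. Kdr, the main signalling receptor, which is also expressed in retinal neurons, fell by 0.71 (± 0.13, adjusted p = 0.0139), from 10.35 and 10.66 to 9.73 and 9.86. Its call was lost without the first day 17 (0.0725) or the second day 7 array (0.0627). Of 13 tip cell genes none rose and 3 fell, while over all tested genes 5.32% fell. The median of the 13 was -0.002, with 6 positive and 7 negative differences. Of the 13, 3 lay below the negative control median on all 4 untreated arrays. Not all of the falls held with each array left out. Cxcr4, a chemokine receptor of sprouting tips and of neurons, fell by 1.98 (± 0.27, adjusted p = 0.00404), from 8.34 and 8.37 to 6.74 and 6.01. Angpt2, which loosens vessels for sprouting, fell by 0.68 (7.04 and 6.87 to 6.22 and 6.33, adjusted p = 0.0146), with adjusted p = 0.0733 without the first day 17 and 0.0629 without the first day 7 array. Dll4, the tip cell Notch ligand, fell by 0.64 (adjusted p = 0.0106, and 0.0550 without the first day 17 array).

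Of 14 genes of the blood-retina barrier and Norrin signalling, 5 rose and 1 fell (median 0.21). The fall, of the Norrin co-receptor gene Lrp5, was lost without the first day 17 (adjusted p = 0.0752) or second day 7 array (0.0520). The efflux pump gene Abcb1a rose (1.08 ± 0.10, adjusted p = 0.000733), from 5.55 and 5.74 to 6.68 and 6.78. Slco1a4, an organic anion transporter of barrier endothelium, rose by the most in the list (2.67 ± 0.33), from 4.82 and 4.30 to 7.51 and 6.96. Fzd4, the Norrin receptor (0.86 ± 0.12), and the tight junction gene Ocln (0.68 ± 0.10) also rose, and for these 4 genes both day 7 arrays were below the negative control median. Plvap, a marker of leaky fenestrated vessels, was 0.14 higher (adjusted p = 0.680). Of 15 pericyte and smooth muscle genes 3 rose and 2 fell. Without 1 array 1 to 3 rose, the fewest without the second day 7 array, and 1 to 2 fell, with Ndufa4l2 called in every such fit. Abcc9, a channel regulator of pericytes, rose 2.04-fold. Ndufa4l2 fell by 1.93 (± 0.31), from 8.75 and 8.23 to 6.70 and 6.42, and read 7.75 to 9.35 on the OIR arrays. Of 14 hypoxia targets Bnip3 rose, a call lost in 9 of the 10 fits with 1 array left out (adjusted p up to 0.154). Vegfa was 8.99 and 8.75 and then 8.81 and 8.88 (adjusted p = 0.935). The share of hypoxia targets called was under the 10.6% called over all tested genes.

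Of 41 tested genes of the cell cycle and DNA replication, 25 fell and none rose, with a median of -0.67 against 0.01 over all tested genes. Without 1 array 18 to 33 fell, the fewest without the first day 17 array, and 16 of the 25 fell in every such fit. On the day 7 arrays the mean over the 41 was 6.54 and 6.86, and on the day 17 arrays 5.80 and 5.78. Mki67 encodes the Ki-67 proliferation antigen. It read 8.77 and 9.50 at day 7 and 5.14 and 4.49 at day 17 (-4.32 ± 0.30, adjusted p = 0.000310), below the negative controls, while the OIR arrays read 6.07 to 6.77, between the groups. Top2a, the topoisomerase that untangles chromosomes, read 7.06 and 8.11 and then 4.55 and 4.57 (-3.02 ± 0.29, adjusted p = 0.00101). Here the second day 7 array was the brighter of its pair, and the day 17 arrays were nearly equal.

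The mitotic motor gene Kif11 fell by 2.18, the centromere gene Cenpf by 2.07, and the spindle genes Tpx2 and Nusap1 by 1.77 and 1.66, each to below the negative control median at day 17. Hmgb2, a chromatin protein of dividing cells, stayed above it and fell by 1.09 (8.51 and 8.32 to 7.50 and 7.15). Rrm1, a ribonucleotide reductase subunit, fell by 1.02. The replication licensing genes Mcm6 and Mcm3 fell by 1.11 and 0.80. Pcna, the replication clamp, differed by 0.12 (adjusted p = 0.860) and Gmnn, which blocks relicensing, by 0.05 (adjusted p = 0.856). The mean of the list on the OIR arrays was 5.90 to 6.06.

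The promoters of these genes were read for the letters CCAAT, which read ATTGG on the other strand and are known as the box bound by NF-Y in many genes of the G2 and M phases. In the 250 bases before the start they are found in 34.3% of the 25748 windows and in 24 of the 33 cell cycle genes with a window (72.7%), against 5 of 13 rod phototransduction genes (38.5%). The letters TTTGAA, which read TTCAAA on the other strand, are the core of the element known as the cell cycle homology region. They are in 15.9% of all windows, in 11.5% of those of tested genes, and in 10 of the 33 (30.3%). For CCAAT the share among tested genes was 35%. The CCAAT share was 41% of 173 genes at least 2-fold lower, 37.2% of 304 at least 2-fold higher, and 50% of 16 bipolar genes. For TTTGAA these shares were 15.6%, 11.8% and 25%. The windows printed are of Top2a (chr11:99024190-99024339, minus strand), with 4 matches in 150 bases, and of Mki67 (chr7:135716380-135716529, minus strand), with 1. Capitals mark CCAAT in either orientation.
Top2a: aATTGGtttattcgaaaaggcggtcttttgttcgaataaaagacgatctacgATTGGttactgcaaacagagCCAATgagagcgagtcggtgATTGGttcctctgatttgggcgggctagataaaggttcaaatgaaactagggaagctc
Mki67: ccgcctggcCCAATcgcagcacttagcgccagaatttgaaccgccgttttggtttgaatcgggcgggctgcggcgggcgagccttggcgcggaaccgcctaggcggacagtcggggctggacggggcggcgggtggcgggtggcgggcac

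Retinal progenitor genes had negative differences in all 20 tested, with 7 past the threshold and a median of -0.40. Without the first day 17 array 3 passed. Fgf15, a growth factor of progenitors, read 6.43 and 6.70 at day 7 and 4.76 and 4.65 at day 17 (-1.86 ± 0.13, adjusted p = 0.000310). The Notch receptor gene Notch1 fell by 1.50 (± 0.20), from 8.40 and 9.01 to 7.07 and 7.35, and the orphan nuclear receptor gene Nr2e1 by 0.83. Factors that Müller glia and other mature cells keep, such as Sox2 (-0.56, adjusted p = 0.159, and 0.0232 without the second day 17 array) and Hes1 (-0.09, adjusted p = 0.850), did not pass.

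Genes of immature neurons fell in 11 of 27 and rose in none (median -0.52), and 6 fell without either the first day 17 or the first day 7 array. Sox11 and Sox4, transcription factors of newborn neurons, had tight replicates. Sox11 went from 8.06 and 7.95 to 6.00 and 6.01, with an SE of 0.10 for the difference (adjusted p = 8.28e-05), and Sox4 from 10.05 and 10.15 to 7.42 and 7.71, a difference of -2.54 (± 0.13, adjusted p = 8.36e-05). Tubb2b, a tubulin of growing neurons, fell by 3.07 (± 0.31), from 9.82 and 10.40 to 6.70 and 7.37. Its close relative Tubb2a was 0.43 lower (adjusted p = 0.581), and cross-hybridisation among tubulins was not tested. Cd24a, a surface glycoprotein of young neurons, fell by 2.71 (± 0.57, adjusted p = 0.0223), a call lost without the first (0.0661) or second day 17 (0.0876) or first day 7 array (0.102). The growth cone gene Gap43 fell by 0.74 (adjusted p = 0.0442) and lost its call in 7 of the 10 fits with 1 array left out (adjusted p up to 0.161), and Stmn2 was 0.42 lower (adjusted p = 0.506). Of 22 axon guidance genes 7 fell and 1 rose, the netrin receptor gene Unc5d, whose call was lost in 5 of 10 fits with 1 array left out (adjusted p up to 0.0794). In the fit of the 4 untreated arrays alone none of the 22 passed. Robo1 and Robo2, receptors of Slit repellents, fell by 0.80 and 0.68, the ephrin receptor gene Epha5 by 0.96 and the semaphorin receptor gene Plxna2 by 0.69. Netrin's gene Ntn1 differed by 0.06 (adjusted p = 0.854).

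**Figure D4:**
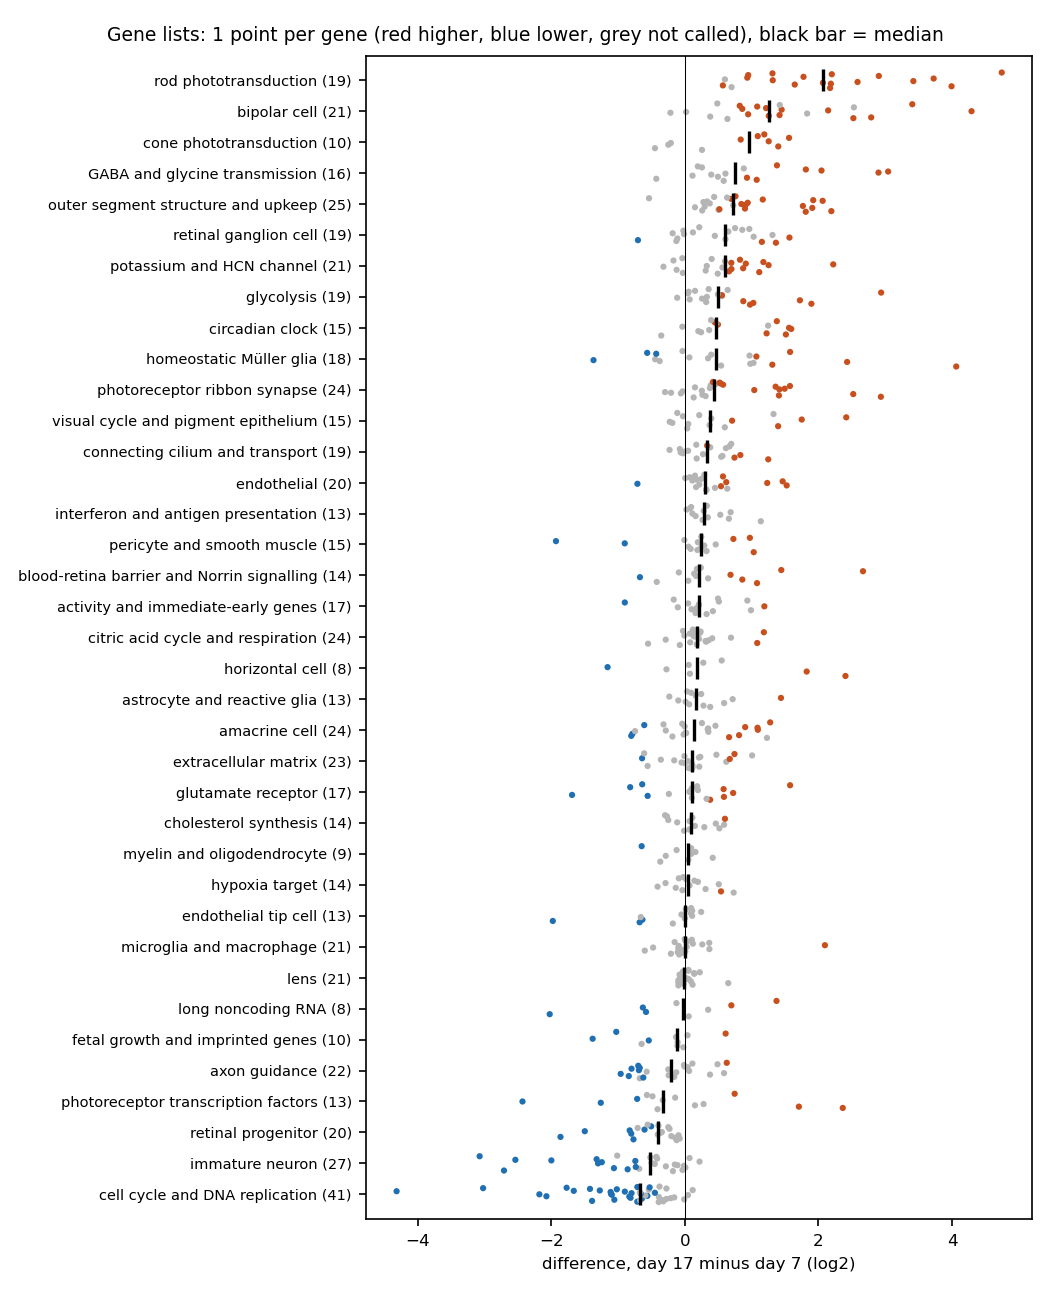
Log2 difference between day 17 and day 7 for each tested gene of 37 gene lists (number of genes in brackets), ordered by the list median (black bar), with genes past the threshold in red (higher) or blue (lower). Rod phototransduction lies at the top with a median of 2.07 and cell cycle and DNA replication at the bottom with -0.67, while the lens list has a median of -0.01.

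Of 19 glycolysis genes 7 rose and none fell (median 0.49), and 3 rose without the second day 7 array. Slc16a1, a monocarboxylate transporter that exports lactate, read 7.27 and 6.74 and then 9.79 and 10.10, a rise of 7.67-fold (2.94 ± 0.18, adjusted p = 0.000158). Hk2, the hexokinase that binds mitochondria, rose 3.30-fold, from 6.66 and 6.75 to 8.36 and 8.50, and the aldolase gene Aldoc 3.72-fold. The lactate dehydrogenase gene Ldha (0.07, adjusted p = 0.898) and the pyruvate kinase gene Pkm (0.04, adjusted p = 0.948) did not pass. Of 24 genes of the citric acid cycle and respiration 2 rose (median 0.18), and 1 without the first day 17, the second day 7, or any PBS or ISOX DUAL array, while 2 fell without the second day 17 array. The 2 were Ppargc1a, a coactivator of mitochondrial genes, whose call was kept in 4 of 10 such fits (adjusted p up to 0.140), and Ckmt1, a mitochondrial creatine kinase gene (2.12-fold). Of 14 cholesterol synthesis genes Sc5d rose (1.51-fold), and Hmgcs1 was 0.15 higher (adjusted p = 0.814). The shares called in this list and in that of the citric acid cycle and respiration were under the 10.6% called over all tested genes.

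Of 15 circadian clock genes 7 rose and none fell (median 0.47), and 4 rose without the second day 7 array. Per3 rose 2.60-fold, from 6.86 and 6.79 to 8.15 and 8.26, and the clock output factor gene Hlf 2.95-fold, from 6.90 and 6.75 to 8.48 and 8.29. Bhlhe41 rose 2.34-fold, with OIR arrays at 8.83 to 9.19 against 8.50 and 8.68 untreated. Arntl, the core activator, was 0.35 lower (adjusted p = 0.255). The hour of collection is not given in the sources used here. Of 17 immediate-early genes tested 1 rose and 1 fell, near the 10.6% called over all tested genes. Among immediate-early genes Jun fell by 0.90, and Fos, its partner in the AP-1 complex, rose 2.28-fold (adjusted p = 0.0160, 0.0701 without the second day 17 and 0.0893 without the second day 7 array).

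Of 10 fetal growth and imprinted genes 1 rose and 3 fell. The rise, of the imprinted gene Peg3, was lost without the first day 17 (adjusted p = 0.0547) or second day 7 array (0.0513). Igf2bp3, an RNA-binding protein of fetal tissue, fell by 1.38 (± 0.11, adjusted p = 0.000441) and the imprinted zinc finger gene Plagl1 by 1.03. Igf2 fell by 0.54, from 7.98 and 7.94 to 7.51 and 7.33 (adjusted p = 0.0152), with adjusted p of 0.0594 without the second day 17 array and 0.0530 and 0.0535 without the first and second day 7 arrays. Of 8 long noncoding RNAs 2 rose and 3 fell, and 1 rose without either day 7 array or either ISOX DUAL array, where Snhg11 lost its call (adjusted p up to 0.0869). Miat, a nuclear noncoding RNA of retinal precursors, fell by 2.03 (± 0.30), from 8.04 and 8.89 to 6.17 and 6.71. Malat1, a very abundant nuclear RNA, read 12.28 on both day 7 arrays and 12.32 and 12.36 at day 17 (adjusted p = 0.759). Of 23 extracellular matrix genes 2 rose, among them the matrix glycoprotein gene Sparc (1.67-fold), and 1 fell, near the 10.6% called over all tested genes.

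The named genes of largest difference include several outside the lists. Pdzph1, which encodes a protein with PDZ and pleckstrin homology domains, had the largest difference of all named genes, from 4.85 and 4.23, below the negative controls, to 9.40 and 9.27 (4.80 ± 0.20, adjusted p = 3.61e-05). Folh1, a peptidase that releases glutamate, went from 3.74 and 3.99 to 7.44 and 7.79, and read 5.42 to 7.30 on the OIR arrays. Vtn, the matrix protein vitronectin, rose 9.18-fold, Tnfaip3, a brake on NF-kappaB signalling, 9.00-fold, and Drd4, the dopamine receptor of photoreceptors, 8.62-fold. Drd4 read 6.44 and 6.86 at day 7 and 9.41 and 10.11 at day 17. Il33, a nuclear cytokine, rose by 3.20 (± 0.19) and Cds1, an enzyme of phospholipid synthesis, by 3.32 (± 0.20), both from below the negative controls. Pitpnm2os2, a noncoding RNA annotated opposite Pitpnm2, rose by 3.39 (± 0.19), and whether the labelling keeps strands apart is not given in the sources used here.

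Falling genes outside the lists included transcription factors and lipid carriers. Mybl1 fell by 3.61 (± 0.20, adjusted p = 0.000106), from 9.48 and 9.21 to 6.00 and 5.47, and the related proto-oncogene Myb by 2.66 (± 0.21). Fabp7, a fatty acid-binding protein of radial glia, fell by 3.52 (± 0.42), from 10.83 and 10.04 to 7.43 and 6.40. Slc27a2, a fatty acid transporter gene, fell by 2.64, and the connexin gene Gje1 (-2.91 ± 0.16) and Ccdc175 (-2.95 ± 0.16) fell too, all to below the negative controls. Nnat, an imprinted membrane protein of differentiating neurons, fell by 2.58, and Txnip, an inhibitor of thioredoxin and glucose uptake, fell by 2.44. Arhgap31, a regulator of small GTPases, fell by 2.45. Tubb2a-ps2 fell by 2.44, but it is a pseudogene that shares sequence with expressed tubulins, so its own level is uncertain.

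Markers of neighbouring tissues and blood-borne cells were read on the same arrays. Of 15 genes of the visual cycle and pigment epithelium, which lies against the outer segments, 4 rose and none fell, and none of the 4 passed in all fits with 1 array left out. Rpe65 read 5.01 and 4.44 and then 7.71 and 6.57 (adjusted p = 0.0412), and its call was lost without the first day 17 array (0.198) and without the first (0.0835) or second (0.167) day 7 array, among 7 of the 10 fits. Rgr read 7.44 and 6.81 and then 8.94 and 8.82 (adjusted p = 0.0415), a call kept in 4 of those 10 fits (adjusted p up to 0.177), while the pigment genes Tyrp1 (-0.11, adjusted p = 0.889) and Mlana (0.05, adjusted p = 0.833) did not pass. The mean of the 15 was 6.68 and 6.40 at day 7 and 7.24 and 7.00 at day 17, and how far pigment epithelium in the sample enters these values was not tested. None of 21 lens genes passed (means 5.78 and 6.09, then 5.88 and 6.09), nor did either of the 2 tested red blood cell genes. Of 21 microglia and macrophage genes Lyve1, which also marks lymphatic cells, rose (2.10 ± 0.26, from below the negative controls), and the microglial genes P2ry12 (0.12, adjusted p = 0.693) and Tmem119 (0.01, adjusted p = 0.979) did not pass. Of 9 myelin genes Ugt8a fell by 0.65, with all arrays below the negative controls and adjusted p of 0.0705 without the second day 17 and 0.0747 without the first day 7 array. All 13 interferon and antigen presentation genes had positive differences (median 0.28), as did 52.3% of all tested genes, and none passed. Of these 13, 5 lay below the negative control median on all 4 untreated arrays. The microglia and myelin lists had 1 call each, where 10.6% of all tested genes were called. Of 21 microglia and macrophage genes 9, and of 21 lens genes 9, were below the negative control median on all 4 untreated arrays. For the myelin genes this was 5 of 9.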

How the data were processed

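RNA of mouse retina was extracted with Trizol and labelled with the WT Terminal Labeling Kit (Affymetrix), per the labels' protocols. For every transcript cluster on every array the authors deposited a log2 signal, a scale judged from its range (0.78 to 13.67). How the authors summarised and normalized the probes is not given in the sources used here. No further normalization was applied. Of 65956 clusters, 30604 carried 1 gene symbol, updated through RefSeq (22818 by Entrez identifier, 7784 by symbol or synonym, 2 as given), and stood for 30063 genes. A gene with several clusters was read from that of highest mean. Clusters with several symbols or none are not analysed here. Genes above an array's 30th percentile on at least 2 arrays were tested.

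A limma fit (version 3.58.1, R 4.3.3) of all 10 arrays in 5 groups gave the contrast of untreated day 17 against untreated day 7. P-values were adjusted by Benjamini-Hochberg over 23255 genes, 1158 of them not autosomal and not printed. Standard errors had a median of 0.13 on the log2 scale, which gives a 95% interval of 0.31 to either side. Precision is limited by the few arrays. The fit was tested on simulated data. Named genes were up to 15 of largest difference each way among called genes whose groups do not overlap, leaving out predicted and clone names, up to 5 of smallest p in each list, and a fixed set. Other list members were named after their values were seen. The members and lists were chosen with earlier results of these data known. Alternatives changed the array values, filter, arrays, variance model and call rule, left out each array, or added the replicate number as a block. That number is not said to mark shared animals and was not taken to pair the arrays. Promoter windows come from RefSeq (GRCm38.p6), and those on chromosomes 18, X and Y were not read.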

Additional observations from a re-analysis of the deposited data

How the results depend on the processing

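The number of genes past the threshold was 2353 (1177 higher, 1176 lower). It fell to 632 (356 and 276) with the stricter filter on low values, which tested 4307 genes, to 331 (199 and 132) in a fit of the 4 untreated arrays alone, to 799 (437 and 362) in a fit of the 6 uninjected arrays, to 1067 (561 and 506) with array weights, and to 679 (415 and 264) where a 2-fold change was also asked. Leaving out 1 array gave 1433 to 2132 genes, 696 to 1092 of them higher and 695 to 1177 lower. Where a group kept 1 array, that array was assumed to vary like the other groups. With the replicate number as a block the count was 2744 (1346 and 1398) over 10 arrays, and 3634 (1738 and 1896) over the 6 uninjected arrays. Deviations of arrays with the same number correlated at 0.58 between the untreated groups, at 0.59 and 0.81 between uninjected OIR and untreated day 17 and day 7, and at -0.41 to -0.06 between uninjected and injected groups. The fit of the 4 untreated arrays called 8 rod genes higher (17 with all arrays), 1 cone gene (6), 4 outer segment (14), 5 ribbon synapse (12) and 4 bipolar genes (13), and called 8 cell cycle genes lower (25), 1 progenitor (7) and 4 immature neuron genes (11). Of 161 named genes called, 81 kept their call with the 4 untreated arrays, 112 with the 6 uninjected and 121 with array weights. Every gene named in the text, with further called list members and genes of the named set (326 genes, 72 of them not past the threshold) were computed under each setting. Fits of the 4 untreated or 6 uninjected arrays, or without an OIR array, keep the same difference, so no sign could turn in them. With array weights or without 1 untreated array, a sign cannot turn where a gene's groups do not overlap. None of the 254 called genes changed sign, and 20 of the 72 others did. With 1 array left out 19 changed sign, with ranges for Bsn of -0.044 to 0.31, Crx -0.86 to 0.038, Ctbp2 -0.30 to 0.18, Gmnn -0.032 to 0.13, Grin2b -0.010 to 0.14, Hes1 -0.21 to 0.024, Hmgcs1 -0.043 to 0.34, Ldha -0.20 to 0.34, Mlana -0.023 to 0.12, Ntn1 -0.093 to 0.22, Pclo -0.099 to 0.85, Pcna -0.19 to 0.42, Pkm -0.35 to 0.44, Rbpms -0.15 to 0.11, Tmem119 -0.069 to 0.082, Tubb2a -0.99 to 0.13, Tyrp1 -0.50 to 0.27, Vegfa -0.14 to 0.090 and Vim -0.44 to 0.37. With quantile normalization Gmnn was at -0.012, Malat1 at -0.080, Rbpms at 0.0065 and Tmem119 at -0.017, and with median centring Gmnn at -0.0051, Mlana at -0.0016, Pkm at -0.0086 and Tmem119 at -0.045. The cause was not tested.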

Other observations

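Over all tested genes, list members included, calls were counted by annotated class. Of 2091 long noncoding RNAs tested, 129 were called higher and 44 lower at day 17, while of 2662 pseudogenes 21 were higher and 73 lower, and of 15206 protein-coding genes 999 were higher and 1013 lower. Of 384 microRNA genes 10 were higher and 11 lower, and of 675 small nucleolar RNAs 5 and 11. A mean over 63 small nucleolar RNAs differed between the 2 arrays of each group, 7.72 and 8.62 at day 7 and 7.29 and 8.27 at untreated day 17. The differences between these classes were not tested.

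For 8 called genes none of the 6 OIR arrays at day 17 lay beyond the day 7 arrays in the direction of the change. Besides Tacr3, these included Mcam, an adhesion molecule of pericytes and endothelium, at 7.37 and 7.85 at day 7, 6.64 and 6.78 at untreated day 17 and 7.46 to 8.29 on the OIR arrays. Its call was kept in 3 of 10 fits with 1 array left out (adjusted p up to 0.163). Tmem41a, a lipid scramblase gene, read 8.18 and 8.00, then 8.63 and 8.52, and 7.92 to 8.17 on the OIR arrays, and its call was kept in 5 of the 10 fits (adjusted p up to 0.134). The other 5 lay below the negative control median on both day 7 arrays, and all of them but Gm20026 also on both untreated day 17 arrays. This count was made after the values were seen, and no difference between OIR and untreated arrays was tested here.

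The largest fall of any autosomal gene was that of AA623943 (-4.85), and Gm11546 (-4.49) was also lower by more than Mki67 (-4.32). Both carry clone or predicted names and were singled out after their values were seen.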
